A study of Homo sapiens with 36 samples.

Results

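Clone 4 is a single cell clone of HEK293, an established human line from embryonic kidney, and this account covers its response to HyT36 across all genes. The study joins HaloTag, an engineered dehalogenase that binds chloroalkanes covalently, to endogenous proteins and then adds HyT36, a hydrophobic HaloTag ligand, so that the tagged protein presents a hydrophobic patch. The question put to the data is which stress responses follow. The comparison took 6 of the 36 samples of the series, 3 bulk RNA libraries of clone 4 with HyT36 at 25 µM and 3 of clone 4 with the solvent DMSO. All 6 carried the tag, so a response to the ligand alone and a response that needs the tagged protein cannot be told apart in them. The protocols name exposures of 2 and 12 h without saying which was used for bulk cells, and the protein that was tagged in clone 4 is not stated. Counts of a guide RNA named for HDAC2, a histone deacetylase, were 2318, 2897 and 3029 with DMSO and 3504, 2867 and 3181 with HyT36, and the highest count of any other guide in these 6 libraries was 13. All 36601 genes of the table were members of the comparison, and 14892 had enough reads to be tested.

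Cells meet misfolded protein with several transcriptional programs that are partly separate. In the integrated stress response, kinases phosphorylate the translation factor eIF2 alpha, which lowers protein synthesis while favouring translation of the transcription factor ATF4, and ATF4 with its partners turns on amino acid supply genes and genes such as CHAC1. In the endoplasmic reticulum (ER), the sensors PERK, IRE1 and ATF6 respond to unfolded protein, and XBP1 and ATF6 drive chaperones and degradation factors, while in the cytosol the factor HSF1 drives the HSP70 and HSP40 chaperones.

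The libraries held 23416253 to 28635511 gene counts, so a CPM of 1 (counts per 1e+06 gene counts) was 23.6 reads or more. HEK293 marker genes summed to 997 to 1041 CPM, with VIM and CDH2 near 200 CPM, although NEFM, NEFL and SOX11 from that list were at or near 0. Fibroblast markers summed to at most 10.8 CPM and blood cell markers to at most 1.86 CPM. Transcripts of 12 epithelial carcinoma markers divided the libraries across the groups. They summed to 106 CPM in DMSO replicate 1 and to 63.9 and 62.7 CPM in HyT36 replicates 2 and 3, against 3.83 to 4.2 CPM in the other 3. Their leading gene, the keratin KRT19, was at 69.9 CPM in DMSO replicate 1, 41.1 and 42.1 CPM in HyT36 replicates 2 and 3 and at most 0.235 CPM elsewhere. With the level of KRT19 as a covariate, 1055 genes passed for HyT36, 767 of them among the 830 that passed without it. In bulk RNA a larger number of cells of one kind and more of their RNA per cell cannot be told apart, and the part of these transcripts in single results was not tested beyond the fits named beside them.

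In clone 4, HyT36 raised genes of the integrated stress response, of chaperone supply and of cholesterol synthesis, and lowered some targets of p53 and of the YAP and TEAD factors. By edgeR's quasi-likelihood test 830 of 14892 genes passed at a Benjamini-Hochberg adjusted p under 0.05, which is 5.57% of those tested. Of these, 329 rose (2.21%) and 501 fell (3.36%), and the groups did not overlap in 819 of the 830, against 23.5% of all genes tested. Lack of overlap was also a condition for naming the largest rises and falls. Where it is mentioned below for a called gene, it describes the values and adds no separate support. The median log2 fold change was 0.21 among the rising genes and -0.27 among the falling ones, beside 0.00 over all genes, and changes past 2-fold were found in 10 rising and 9 falling genes. With KRT19-poor libraries only, 287 genes passed, and with KRT19-rich libraries only, 1177 did. The KRT19-poor set holds 1 HyT36 library of clone 4 and the KRT19-rich set 1 DMSO library, so every result given for either set rests on a lone sample whose spread is borrowed from the rest of the fit. In the KRT19-rich libraries 48.3% of the called genes rose, against 39.6% in the full fit, and with DESeq2 the share was 48.7%. Without HyT36 replicate 1, 2 or 3 the count was 545, 532 or 409.

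The response was uneven over abundance. Among the most abundant genes, with a mean log2 CPM from 7 upwards, 8.84% were called and 71.9% of the called genes rose. Between 5 and 7 a similar share was called (8.91%), but only 33.4% of those rose, and between 3 and 5 the shares were 6.35% called and 30.1% of these rising. Of the 3217 genes under a mean log2 CPM of 1, 14 were called. The median log2 fold change was 0.04 in the most abundant range and -0.05 in this lowest one. The shares over all genes that stand beside the lists below were not matched for abundance. A list of the most abundant genes is thus set against a share of rises lower than that of its own range. In a simulation of this comparison over 14809 genes, 90% of genes changed 2-fold and 76% of genes changed 1.5-fold were found, and 54% at the smallest fold simulated, whose median fitted size was 0.32 on the log2 scale. By class, 807 of 12903 protein-coding genes and 11 of 994 long noncoding RNA genes were called, and of the latter 10 fell and 1 rose.

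**Figure D1:**
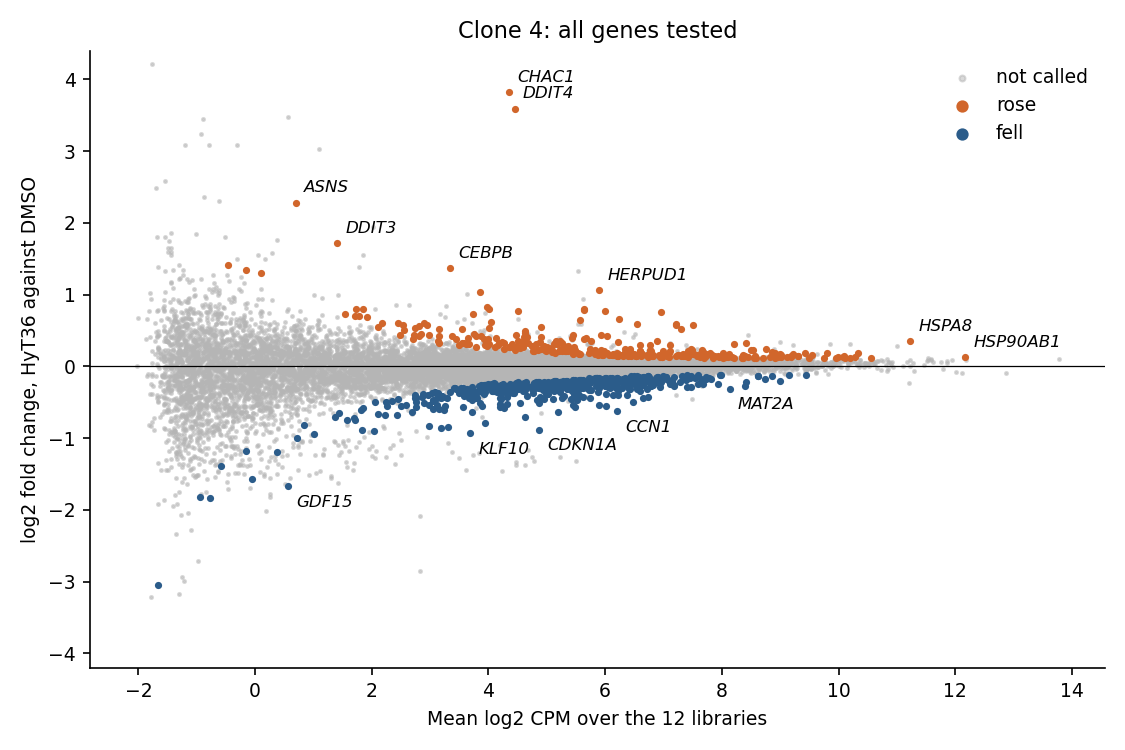
Each point is 1 of the 14892 genes tested in clone 4, by its mean log2 CPM over the 12 bulk libraries of the series (horizontal) and its log2 fold change with HyT36 against DMSO (vertical). The 329 genes that rose and the 501 that fell are coloured, CHAC1 and DDIT4 stand above all other called genes at 3.82 and 3.59, and at the abundant end most called genes lie above 0.

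Promoters of 7 genes that rose are printed here, picked because they hold letters that the factors of these programs are known to bind. Windows of other leading genes, such as DDIT4, SESN2 and DNAJB1, held no match to the 3 motifs shown. The first group shows the combined C/EBP and ATF motif, which ATF4 is known to use, spelled TGATGNAA on either strand. Capitals mark the motif in each RefSeq promoter stretch, written 5′ to 3′ on the strand of the gene.
CHAC1: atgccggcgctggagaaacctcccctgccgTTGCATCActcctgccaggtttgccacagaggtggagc
ASNS: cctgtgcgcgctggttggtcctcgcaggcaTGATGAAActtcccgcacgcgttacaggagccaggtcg
ATF3: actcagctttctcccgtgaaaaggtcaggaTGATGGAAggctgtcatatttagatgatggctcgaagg
HERPUD1: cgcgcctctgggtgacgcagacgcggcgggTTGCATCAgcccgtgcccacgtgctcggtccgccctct
These stretches lie at chr15:40953232-40953299 on the plus strand, chr7:97872439-97872506 on the minus strand, chr1:212565186-212565253 on the plus strand and chr16:56931936-56932003 on the plus strand (GRCh38.p14). Their motifs begin 209, 68, 191 and 176 bases before the annotated start of the transcript. Over all promoter windows of tested genes, 250 bases before to 50 after the start with 1 window per gene, 1.72% of 11369 held this motif. The share was 5.05% (14 of 277) for genes that rose and 0.75% (3 of 400) for genes that fell. Besides the 4 printed, windows with the motif belonged to the rising genes SLC3A2, AARS1 and BCL6, described below, among others.

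The second group shows the ER stress element, in capitals, which ATF6 and XBP1 are known to bind, and the third a heat shock element, the site type of HSF1.
XBP1: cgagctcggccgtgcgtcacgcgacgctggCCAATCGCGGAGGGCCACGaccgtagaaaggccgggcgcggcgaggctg
HSPA5: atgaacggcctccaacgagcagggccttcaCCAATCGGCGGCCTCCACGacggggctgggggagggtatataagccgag
HSPA8: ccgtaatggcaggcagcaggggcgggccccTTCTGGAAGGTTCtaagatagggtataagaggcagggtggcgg
All 3 lie on the minus strand, at chr22:28800573-28800651, chr9:125241361-125241439 and chr11:123062149-123062221 (GRCh38.p14). The ER stress element (CCAAT and, at its usual spacing, CCACG) was searched on both strands and was found in 14 of 11369 windows (0.123%), in 2 of the 277 rising genes (XBP1 and HSPA5) and in 0 of the 400 falling ones. The heat shock element (3 alternating units of GAA and TTC with 2 bases between them, either strand) was in 0.299% of all windows, 1.08% of rising genes (3) and 0.25% of falling genes (1). The sterol element TCACNCCAC was in 1.03% of all windows, 0.722% of rising and 1% of falling genes, the AP-1 site TGANTCA in 4.35%, 5.42% and 4.75%, and the E-box CACGTG, which holds the same letters on both strands, in 9.94%, 12.6% and 12.8%. These are matches of letters with no test, and windows further from the start were not searched.

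The largest rises were those of CHAC1 and DDIT4. CHAC1, an enzyme that breaks down glutathione and a known ATF4 target, had 5.16, 4.55 and 4.12 CPM in the DMSO libraries and 67.0, 65.5 and 63.0 CPM in the HyT36 libraries. The lowest treated library was thus far above the highest control, and the log2 fold change was 3.82 ± 0.09 (SE; edgeR, Benjamini-Hochberg adjusted p = 1.1e-30). DDIT4, which restrains the growth kinase mTORC1, went from 6.86, 4.47 and 3.25 CPM to 55.0, 59.2 and 61.2 CPM (3.59 ± 0.18, adjusted p = 3.4e-06). The groups of both genes were separated by more than any spread within them. SESN2, a second brake on mTORC1 that senses leucine, rose from 34.3, 45.2 and 35.2 to 67.2, 65.8 and 65.1 CPM (0.79 ± 0.09, adjusted p = 2.0e-04). Of 15 tested mTORC1 brakes these 2 rose and 0 fell, beside 2.21% and 3.36% of all genes. The median of the list was 0.07, against 0.00 over all genes. Of 12 glutathione metabolism genes CHAC1 and GCLM, a subunit of the enzyme for the first step of glutathione synthesis, rose, the latter by 0.23 ± 0.06 (adjusted p = 0.018). GCLM did not pass in either the KRT19-poor or the KRT19-rich libraries alone, or without DMSO replicate 2 or any 1 HyT36 library.

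Among 20 tested regulators of the integrated stress response 6 rose and 1 fell (median 0.09), beside 2.21% and 3.36% of all genes. DDIT3, which encodes the stress factor CHOP, was a low-level gene with 0.973, 1.96 and 1.33 CPM under DMSO and 5.41, 3.18 and 5.54 CPM under HyT36 (log2 fold change 1.72 ± 0.22, edgeR adjusted p = 1.1e-06). CEBPB, a bZIP partner of ATF4, was at 7.66, 7.34 and 6.83 CPM and then at 16.5, 17.6 and 22.2 CPM (1.37 ± 0.24, adjusted p = 0.012). ATF3, a repressor downstream of ATF4, was at 16.5, 21.4 and 18.3 CPM and then at 33.3, 31.8 and 31.2 CPM (0.77 ± 0.08, adjusted p = 3.0e-09). In all 3 genes every treated library lay above every control. CEBPB did not pass in the KRT19-rich libraries alone (adjusted p = 0.070) or without DMSO replicate 3 (0.051). EIF2AK3, the gene of the ER kinase PERK, rose by 0.39 ± 0.09 (adjusted p = 0.0067), a call lost in either set of libraries divided by KRT19 and without DMSO replicate 2 or HyT36 replicate 3.

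The mRNA of ATF4 itself moved little, from 543, 591 and 526 to 602, 633 and 633 CPM (0.17 ± 0.05, edgeR adjusted p = 0.044). That call was lost with the KRT19 covariate, in the KRT19-poor libraries, and without any 1 of DMSO replicates 1 and 3, the 3 HyT36 libraries or 3 of the clone 5 libraries. TRIB3, a pseudokinase induced by ATF4 and CHOP, was at 40.8, 44.7 and 41.6 CPM with DMSO and 47.6, 44.3 and 46.9 CPM with HyT36, and did not pass (0.13 ± 0.06, adjusted p = 0.20). The fall in this list was of TRIB1, a related pseudokinase, by 0.54 on the log2 scale (adjusted p = 0.0011), which did not pass in the KRT19-poor libraries.

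**Figure D2:**
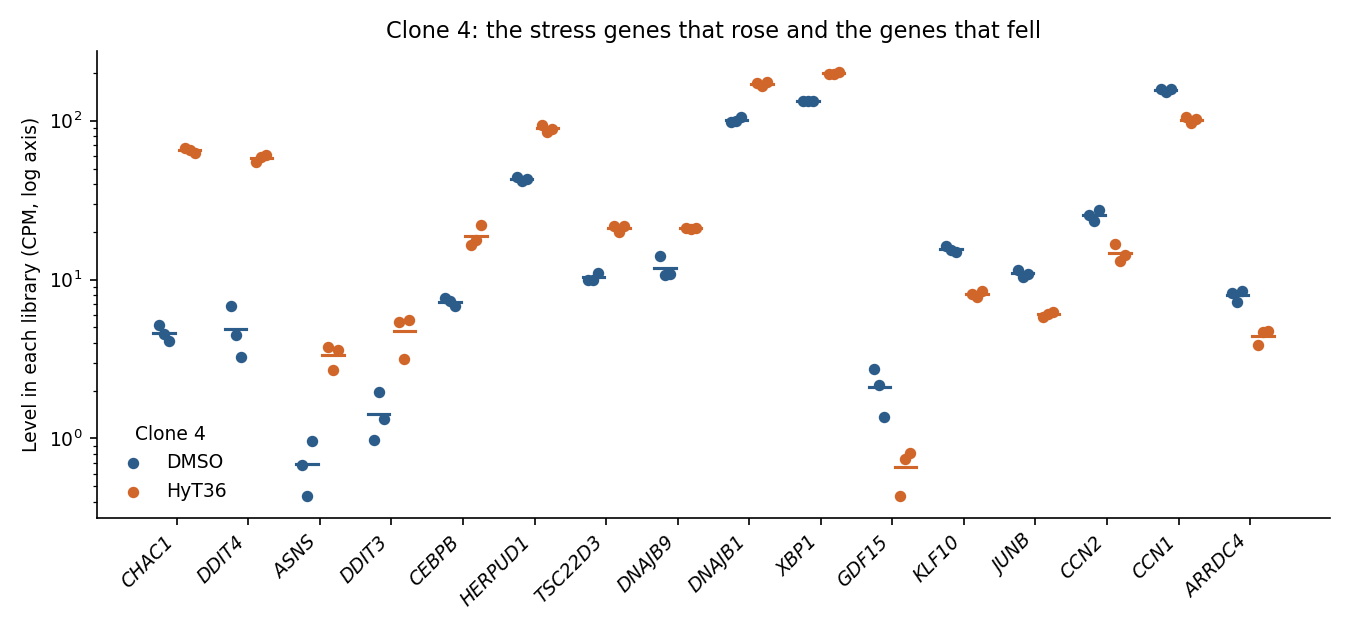
The level of 16 genes in each clone 4 library, in CPM on a log axis, with 3 DMSO libraries (blue) and 3 HyT36 libraries (orange) per gene and bars at the group means. CHAC1 goes from 4.12 to 5.16 CPM up to 63.0 to 67.0 CPM. For each of the 16 genes the groups do not overlap, as in 819 of the 830 called genes.

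Amino acid supply genes rose by small amounts, with 1 exception. Of 21 tested genes of amino acid and one-carbon synthesis, 8 rose and 0 fell (median 0.10), against 2.21% of all genes rising. ASNS, which makes asparagine, was nearly silent with DMSO at 0.677, 0.432 and 0.957 CPM and reached 3.79, 2.70 and 3.58 CPM with HyT36 (log2 fold change 2.28 ± 0.27, edgeR adjusted p = 1.1e-07). CTH, which makes cysteine, went from 30.04, 29.2 and 30.8 to 40.4, 38.3 and 41.0 CPM (0.41 ± 0.06, adjusted p = 1.0e-05). MTHFD2, a mitochondrial one-carbon enzyme, rose by 0.22 ± 0.04 and PHGDH, the first enzyme of serine synthesis, by 0.14 ± 0.04 (adjusted p = 7.0e-05 and 0.013). The count of 8 was 3 in the KRT19-poor libraries and 3 without DMSO replicate 1 or HyT36 replicate 1 or 3, 4 without HyT36 replicate 2 and 5 without DMSO replicate 3. PHGDH was among the calls lost in the KRT19-poor libraries and without DMSO replicate 1 or HyT36 replicate 1 or 3.

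Of 19 amino acid transporter genes, 4 rose and 0 fell (median 0.07), against 2.21% of all genes rising. SLC38A2, a carrier of small neutral amino acids, was at 194, 169 and 171 CPM and then at 276, 264 and 256 CPM (log2 fold change 0.58 ± 0.05, edgeR adjusted p = 2.4e-10). SLC3A2, the shared heavy chain of several exchangers, was at 329, 347 and 324 CPM and then at 409, 429 and 416 CPM (0.33 ± 0.04, adjusted p = 3.4e-08). Its light chains SLC7A5, for large neutral amino acids, and SLC7A11, for cystine, rose by 0.18 ± 0.03 and 0.22 ± 0.05 (adjusted p = 8.7e-04 and 0.0089). SLC7A5 did not pass in the KRT19-poor libraries, and SLC7A11 did not in the KRT19-rich ones or without HyT36 replicate 1. Of 20 enzymes that load amino acids onto cytosolic tRNAs, 4 rose (EPRS1, AARS1, VARS1 and GARS1, by 0.16, 0.14, 0.13 and 0.12), 0 fell, and 19 of the 20 had a positive log2 fold change, with a median of 0.08. The 4 fell to 0 called in the KRT19-poor libraries, to 2 without DMSO replicate 1 or 3 and to 1 without any 1 HyT36 library.

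The ER response was narrow. HERPUD1, a membrane protein that organises the degradation of ER proteins, had 44.1, 41.8 and 42.7 CPM with DMSO and 93.5, 85.5 and 89.0 CPM with HyT36 (log2 fold change 1.06 ± 0.05, edgeR adjusted p = 7.6e-19). It was 1 of 24 tested genes of ER-associated degradation to rise. The fall in that list was of UBE2G2, a ubiquitin-conjugating enzyme, by 0.16 on the log2 scale (adjusted p = 0.0052), which was lost in either set of libraries divided by KRT19 and without DMSO replicate 3. XBP1 had 133, 134 and 133 CPM and then 197, 198 and 203 CPM (0.58 ± 0.04, adjusted p = 2.1e-14), and it was the 1 called gene among 12 sensors and transducers, whose median was -0.01. These counts are of whole-gene mRNA and do not show whether XBP1 was spliced by IRE1.

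Of 30 ER chaperones and folding enzymes 2 rose and 0 fell (median 0.02), against 2.21% of all genes rising. DNAJB9, an ER co-chaperone that binds IRE1, went from 14.05, 10.7 and 10.8 to 21.1, 20.95 and 21.02 CPM (log2 fold change 0.83 ± 0.08, edgeR adjusted p = 2.3e-09). HSPA5, the main ER chaperone BiP, went from 899.7, 868 and 838 to 997, 969.7 and 1000.4 CPM (0.19 ± 0.03, adjusted p = 3.5e-04). Their control and treated libraries did not overlap. SDF2L1, an ER gene that is often a strong target of ATF6 and XBP1, had 49.2, 59.0 and 56.4 CPM and then 54.2, 56.6 and 53.7 CPM (-0.00 ± 0.06, adjusted p = 0.99). Transport between ER and Golgi showed 2 falls among 29 genes, beside 3.36% of all genes falling. Both were small: MCFD2, a cargo adaptor, at -0.17 and GOSR2, a Golgi SNARE, at -0.16. Each was lost in both sets of libraries divided by KRT19 and without DMSO replicate 3 or HyT36 replicate 3. GOSR2 was also lost with limma-voom, RLE scaling, no filter, the replicate block and the KRT19 covariate. Without DMSO replicate 2 or HyT36 replicate 2 the call of GOSR2 was lost as well.

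Cytosolic chaperones rose in the HSP70 and HSP40 families. Of 12 tested HSP70 and HSP110 genes 5 rose and 0 fell (median 0.18), against 2.21% of all genes rising. HSPA8, the abundant constitutive HSP70, had 2275, 2289 and 2345 CPM with DMSO and 3050.3, 2829.9 and 2923 CPM with HyT36 (log2 fold change 0.35 ± 0.03, edgeR adjusted p = 1.6e-09). The inducible genes HSPA1A and HSPA1B are near-identical. Multimapping reads were counted in a separate summary entry (2.30 to 2.82% of all entries in clone 4). Reads that match both genes may therefore be missing from the level of either. HSPA1A had 47.9, 43.5 and 45.04 CPM and then 69.7, 68.2 and 75.3 CPM, and HSPA1B 46.0, 44.5 and 44.0 CPM and then 75.0, 75.4 and 84.8 CPM. Their log2 fold changes were 0.64 ± 0.05 and 0.81 ± 0.06 (adjusted p = 1.2e-11 and 4.6e-13). HSPA13, a microsomal family member, rose by 0.25 ± 0.05 (adjusted p = 3.5e-04), a call lost in the KRT19-rich libraries, where 3 of the 5 passed.

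HSP40 proteins hand clients to HSP70, and 3 of 15 rose and 1 fell (median 0.04), beside 2.21% and 3.36% of all genes. DNAJB1, the main inducible member, had 97.6, 100.005 and 106 CPM and then 172, 165 and 176 CPM (log2 fold change 0.76 ± 0.04, edgeR adjusted p = 1.2e-16). DNAJB4 had 21.96, 20.4 and 20.98 CPM and then 30.6, 27.5 and 30.7 CPM (0.49 ± 0.07, adjusted p = 1.8e-06). DNAJB2 moved the other way, from 33.3, 37.7 and 36.1 to 28.2, 27.2 and 26.3 CPM (-0.39 ± 0.06, adjusted p = 3.0e-05). Each of these 3 separated its groups completely. DNAJA1 rose by 0.15 ± 0.04 (adjusted p = 0.018) and did not pass in the KRT19-poor libraries or without DMSO replicate 1 or HyT36 replicate 1 or 3. Among 25 HSP90 genes, small heat shock proteins and co-chaperones, HSP90AB1 (0.13 ± 0.04, adjusted p = 0.022) and BAG3 (0.24 ± 0.07, adjusted p = 0.035) rose, and both calls were lost in the KRT19-poor libraries and without DMSO replicate 1 or any 1 HyT36 library. HSPB1, a small heat shock protein, was at 424, 478 and 407 CPM and then 420.2, 471 and 469.5 CPM, so its groups overlapped and it did not pass (0.06 ± 0.08, adjusted p = 0.77).

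In mitochondria the paired exchange factors of the matrix HSP70 moved in opposite directions. GRPEL2 rose from 43.4, 35.5 and 39.7 to 54.0, 50.6 and 52.2 CPM (log2 fold change 0.40 ± 0.06, edgeR adjusted p = 9.0e-06). GRPEL1 fell from 124, 129 and 131 to 108, 109 and 102 CPM (-0.27 ± 0.04, adjusted p = 1.8e-05). Of 15 mitochondrial chaperones and proteases tested, AFG3L2, a protease subunit, was the third call (0.14 ± 0.04, adjusted p = 0.040), lost in the KRT19-poor libraries, with limma-voom and without any 1 of 5 clone 4 libraries, all but DMSO replicate 2. Of 32 proteasome subunits 0 rose or fell by edgeR, DESeq2 or limma-voom. At an unadjusted edgeR p under 0.05 there were 4, against 2753 of all 14892 genes tested. The median of the 32 subunits was 0.05, and 29 of them were positive. In the KRT19-rich libraries 6 of them rose, and in the KRT19-poor libraries 0 did.

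Cholesterol genes formed the list with the most calls by number, but not by share, since lists differ in size. HSP70 and HSP110 genes had 5 rises among 12, and Krüppel-like factors 3 rises and 4 falls among 14. Of 27 genes of sterol synthesis and uptake 10 rose and 0 fell, with a median of 0.11, against 2.21% of all genes rising. INSIG1, which holds the SREBP precursors in the ER and is itself their target, had 127, 135 and 133 CPM and then 204, 195 and 199 CPM (log2 fold change 0.60 ± 0.04, edgeR adjusted p = 2.1e-14). MSMO1, a demethylating enzyme of the pathway, had 135, 125 and 132 CPM and then 196, 178 and 188 CPM (0.52 ± 0.05, adjusted p = 2.3e-09). The groups of both genes were apart. In each set of libraries divided by KRT19, 7 of the 27 rose. Fatty acid synthesis differed in count, with 1 of 18 called. FASN, the fatty acid synthase, rose by 0.18 ± 0.04 (edgeR adjusted p = 0.0012), a call lost in the KRT19-poor libraries. At an unadjusted edgeR p under 0.05 there were 11 of the 18, 14 of the 27 sterol genes and 2753 of all 14892 genes. Of the 18 fatty acid genes 9 had a positive log2 fold change, with a median of 0.01, against 22 of the 27 sterol genes.

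**Figure D3:**
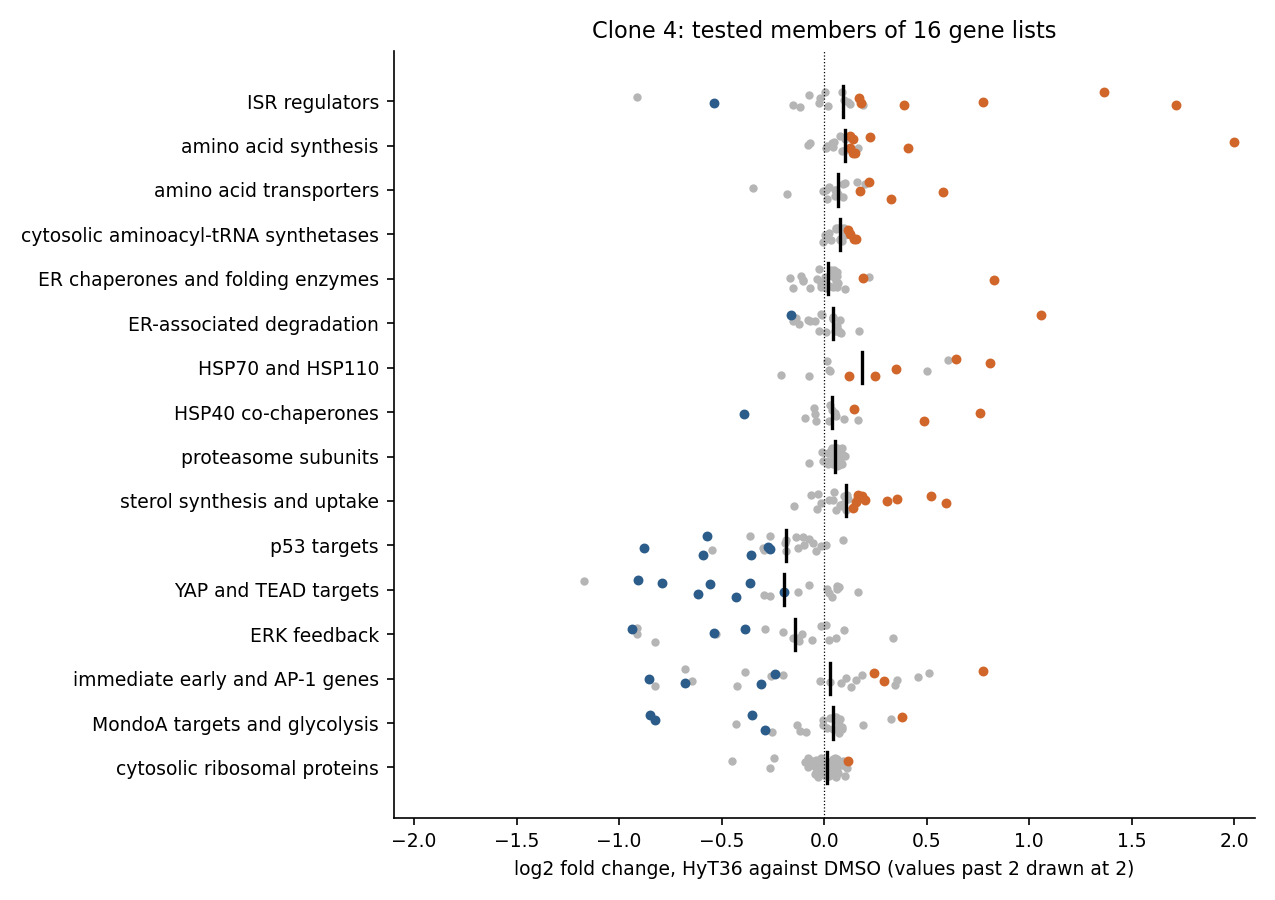
Tested members of 16 gene lists by log2 fold change in clone 4 (horizontal, HyT36 against DMSO), with genes that rose in orange, genes that fell in blue, genes that did not pass in grey and the list median as a black bar. Sterol genes show 10 rises among 27, p53 targets 6 falls among 24, ASNS is drawn at the right edge, and CHAC1 and DDIT4 belong to lists that are not drawn.

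Secreted factors and neighbouring stress genes did not move as one. STC2, a secreted glycoprotein, rose from 66.6, 60.9 and 55.9 to 101, 108 and 103 CPM (log2 fold change 0.77 ± 0.05, edgeR adjusted p = 2.7e-12). VEGFA, the vascular growth factor, rose from 26.3, 28.1 and 25.8 to 38.3, 41.1 and 38.0 CPM (0.55 ± 0.07, adjusted p = 1.6e-07). GDF15, a cytokine that is usually induced by stress and by p53, was at a low level and fell, from 2.75, 2.16 and 1.37 to 0.433, 0.740 and 0.808 CPM (-1.66 ± 0.30, adjusted p = 2.1e-04). Every HyT36 library was below every DMSO library for GDF15, and its direction was opposite to that of CHAC1. Of 14 hypoxia targets VEGFA rose, while ADM, a vasodilator peptide gene, fell by 0.61 on the log2 scale (adjusted p = 1.0e-04) and EGLN3, an oxygen sensor, by 0.25 (adjusted p = 0.043), the last lost in most fits without 1 clone 4 library. HMOX1, a heme-degrading enzyme and NRF2 target, was at 12.9, 12.6 and 12.7 CPM and then 14.1, 13.99 and 14.5 CPM, and did not pass (0.16 ± 0.10, adjusted p = 0.40). SQSTM1, an autophagy receptor, did not pass either (-0.08 ± 0.09, adjusted p = 0.69).

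A group of genes known to follow glucocorticoids and FOXO factors had 4 rises among 14 (median -0.01), beside 2.21% of all genes. TSC22D3, an anti-inflammatory leucine zipper gene, had 9.94, 9.97 and 11.03 CPM and then 21.8, 19.99 and 21.8 CPM (log2 fold change 1.04 ± 0.08, edgeR adjusted p = 1.6e-12). CCNG2, a cyclin linked to arrest, had 11.04, 8.55 and 11.2 CPM and then 19.2, 16.4 and 18.02 CPM (0.80 ± 0.09, adjusted p = 2.8e-08). BCL6, a repressor, had 3.22, 2.39 and 2.21 CPM and then 4.87, 4.44 and 4.31 CPM (0.80 ± 0.17, adjusted p = 0.0018). The repressor was not called in the KRT19-rich libraries (adjusted p = 0.30). Among neural factors NEUROG2, a proneural gene, rose from 8.55, 10.3 and 8.03 to 15.4, 14.4 and 14.8 CPM (0.73 ± 0.09, adjusted p = 4.6e-07). IRX2 rose by 0.81 ± 0.20 and NKX2-2 fell by 0.88 on the log2 scale, homeobox genes at 1.31 to 3.50 CPM, and both calls were lost in the KRT19-poor libraries.

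Of 24 tested p53 targets 6 fell and 0 rose, with a median of -0.19, against 3.36% of all genes falling. CDKN1A, the p21 inhibitor of the cell cycle, had 40.5, 52.7 and 44.4 CPM with DMSO and 20.9, 30.1 and 23.9 CPM with HyT36 (log2 fold change -0.88 ± 0.15, edgeR adjusted p = 0.0086). That call was lost without HyT36 replicate 3 and with the 6 clone 4 libraries fitted alone. BTG2, an antiproliferative gene, had 33.9, 40.1 and 36.3 CPM and then 22.9, 28.0 and 23.5 CPM (-0.57 ± 0.08, adjusted p = 3.3e-05). AEN, a nuclease of p53-dependent apoptosis, fell from 329, 366 and 318 to 279, 289 and 269 CPM (-0.27 ± 0.04, adjusted p = 6.1e-05). For all 3 the highest HyT36 library was under the lowest DMSO library. TNFRSF10B, a death receptor for TRAIL, fell by 0.26 on the log2 scale (adjusted p = 4.4e-05), and TNFRSF10D, a decoy receptor for the same ligand, went from 45.5, 49.4 and 42.2 to 29.0, 28.9 and 26.7 CPM (-0.70 ± 0.07, adjusted p = 8.7e-10). GADD45A, which acts in DNA damage arrest, fell by 0.59 (adjusted p = 1.7e-04) but did not pass in the KRT19-rich libraries. In the BCL2 family the 3 calls among 17 were split, with the BH3-only gene PMAIP1 (NOXA) rising by 0.33 ± 0.06, the pore-forming BAK1 falling by 0.38 and the protective BCL2L1 falling by 0.21, the last lost in both sets of libraries divided by KRT19.

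Targets of YAP and TEAD, the factors that read cell density and tension, had 7 falls and 0 rises among 19, with a median of -0.20. Over all genes tested 3.36% fell. CCN1, a matricellular protein, had 158, 151 and 158 CPM and then 105, 97.1 and 102 CPM (log2 fold change -0.62 ± 0.05, edgeR adjusted p = 3.5e-13). CCN2, its relative, had 25.6, 23.3 and 27.4 CPM and then 16.6, 13.2 and 14.2 CPM (-0.79 ± 0.09, adjusted p = 2.9e-08). AJUBA, a LIM protein that inhibits the LATS kinases, had 103, 98.4 and 99.5 CPM and then 68.8, 71.0 and 64.7 CPM (-0.56 ± 0.05, adjusted p = 2.6e-11). AMOTL2, an angiomotin that binds YAP, had 127, 131 and 132 CPM and then 96.2, 98.6 and 94.4 CPM (-0.43 ± 0.04, adjusted p = 1.1e-09). None of these 4 had overlapping groups, and each kept its call in all 23 alternative fits, that against a fold of 1.2 included. In the KRT19-poor libraries 5 members fell and in the KRT19-rich ones 8. NUAK2, a kinase induced by YAP, fell from 8.08, 6.36 and 5.41 to 3.97, 3.07 and 3.54 CPM (-0.91 ± 0.17, adjusted p = 2.9e-04), a call lost in the KRT19-poor libraries.

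Immediate early genes, ERK feedback genes and Krüppel-like factors moved in both directions or fell. KLF10, a factor induced by TGF-beta, had 16.3, 15.3 and 14.9 CPM and then 8.15, 7.81 and 8.47 CPM (log2 fold change -0.93 ± 0.08, edgeR adjusted p = 1.5e-10). JUNB, an AP-1 subunit, had 11.6, 10.4 and 10.9 CPM and then 5.77, 6.07 and 6.27 CPM (-0.86 ± 0.11, adjusted p = 7.6e-07). FOSL2, another AP-1 gene, fell by 0.68 (adjusted p = 0.0044), and this call was lost without HyT36 replicate 3. Of 25 immediate early and AP-1 genes 4 fell and 3 rose (median 0.03), beside 3.36% falling and 2.21% rising over all genes. Of 20 genes of the ERK feedback loop 3 fell, all dual-specificity phosphatases: DUSP7 (-0.39 ± 0.07), DUSP2 (-0.54 ± 0.11) and DUSP5 (-0.94 ± 0.24, adjusted p = 0.010). DUSP5 was lost in the KRT19-poor libraries and without DMSO replicate 1 or HyT36 replicate 3. Krüppel-like factors divided, with 4 of 14 falling and 3 rising, among the latter KLF5 (0.42 ± 0.05, adjusted p = 1.1e-07) and KLF6 (0.40 ± 0.05, adjusted p = 2.0e-06). SRF, the serum response factor, fell by 0.31 (adjusted p = 9.6e-07), together with 3 more of 24 SRF and cytoskeleton genes, and MYC went from 214, 235 and 240.1 to 190.2, 196 and 197 CPM (-0.24 ± 0.04, adjusted p = 1.9e-04), a call lost in the KRT19-rich libraries.

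Of 27 MondoA targets and glycolysis genes 4 fell and 1 rose (median 0.04), beside 3.36% and 2.21% of all genes. MondoA binds DNA when glucose phosphates are plentiful, and the gene that rose was the arrestin relative ARRDC3 (0.38 ± 0.06, edgeR adjusted p = 1.2e-05). ARRDC4, an arrestin-domain gene that limits glucose uptake, had 8.21, 7.26 and 8.49 CPM and then 3.86, 4.70 and 4.74 CPM (log2 fold change -0.85 ± 0.11, adjusted p = 5.3e-07). PFKFB3, which drives glycolysis through fructose bisphosphate, fell by 0.29 (adjusted p = 4.4e-05). TXNIP, the best known MondoA target and a relative of ARRDC4, had 27.3, 11.8 and 12.4 CPM with DMSO and 6.78, 15.8 and 15.7 CPM with HyT36. Its groups overlapped and it did not pass (-0.43 ± 0.39, adjusted p = 0.64). The high DMSO library and the 2 higher HyT36 libraries of TXNIP were those rich in KRT19. Within the KRT19-rich libraries TXNIP fell by 0.79 log2 units (edgeR adjusted p = 3.0e-07), within the KRT19-poor ones by 0.84 (adjusted p = 1.3e-04) and with KRT19 as a covariate by 0.71 (adjusted p = 4.2e-07). The first 2 of these fits rest on a lone library in 1 arm. In all, 328 genes had a slope on KRT19 past the threshold, 317 of them higher with KRT19. Of the 328, 1 was also among the 830 called for HyT36, against 5.57% of all genes. Both clone 4 groups hold KRT19-rich and KRT19-poor libraries, so a gene that follows KRT19 varies within each group. Whether this spread keeps such genes from passing was not tested. The small overlap does not show that the 830 calls are free of the KRT19 state.

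Ratios do not show which genes gained or lost the most reads, so the change in CPM was added over the called genes. CPM was not scaled for transcript length, so gains of genes of unlike length are not numbers of transcripts. The 329 rising genes gained 7637 CPM together and the 501 falling genes lost 4860 CPM. HSPA8 gained the most, 632 CPM, which is more than 10 times the gain of CHAC1 (60.6 CPM). HSP90AB1 came next with 478 CPM on a level of 5177 CPM, followed by FASN (179), HSPA5 (121), NUCKS1 (120.4), a chromatin protein, and IPO5 (111), a nuclear import receptor. ODC1, the first enzyme of polyamine synthesis, gained 102 CPM, while AMD1, a later one, lost 51.6 CPM. The losses were led by the transferrin receptor gene TFRC, from 565, 545 and 556 to 498, 482 and 475 CPM, and by MAT2A, which makes S-adenosylmethionine, from 363, 346 and 369 to 299.5, 286 and 285 CPM. Their log2 fold changes were -0.20 ± 0.04 and -0.31 ± 0.04 (edgeR adjusted p = 7.8e-04 and 1.1e-07). Of the genes in this paragraph, the calls of HSP90AB1, FASN, IPO5, ODC1, AMD1 and TFRC were lost in the KRT19-poor libraries and that of NUCKS1 in the KRT19-rich ones. HSP90AB1 and ODC1 also did not pass without DMSO replicate 1 or HyT36 replicate 1 or 3, IPO5 without HyT36 replicate 1 or 3, NUCKS1 without HyT36 replicate 1, and HSP90AB1 and ODC1 without HyT36 replicate 2. HSPA8, HSPA5, CHAC1 and MAT2A kept their calls in all of these fits.

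**Figure D4:**
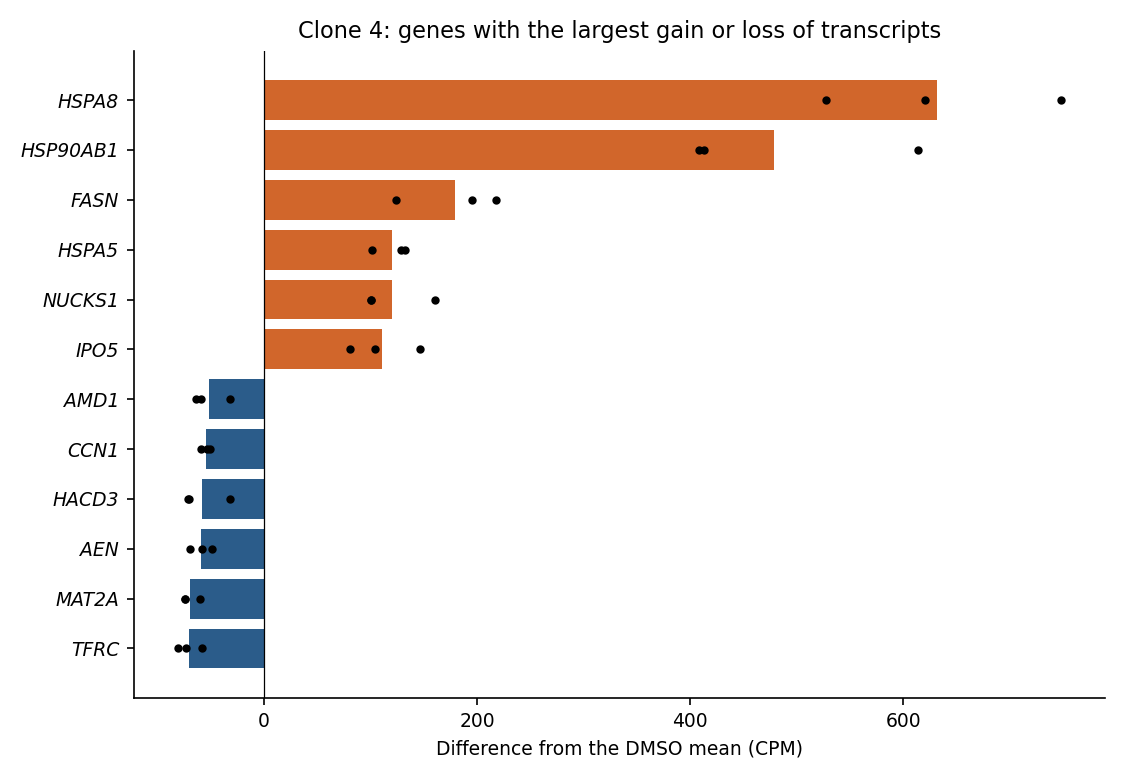
Bars give the difference in mean CPM between HyT36 and DMSO in clone 4 for the 6 genes with the largest gain and the 6 with the largest loss among those called, and dots give each HyT36 library minus the DMSO mean. HSPA8 gained 632 CPM and HSP90AB1 478 CPM, and the largest loss was 70.6 CPM (TFRC).

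Other large gene classes had few calls. Of 75 cytosolic ribosomal protein genes 1 rose, RPS4X at 0.11 ± 0.04 (edgeR adjusted p = 0.045, lost in the KRT19-poor libraries and in most fits without 1 library), and the median was 0.01, although 16 rose in the KRT19-rich libraries. Of 34 nuclear-encoded respiratory chain genes 1 rose, a share near that of all genes, and of 13 mitochondrially encoded genes edgeR called 0, with 1 at an unadjusted p under 0.05, while DESeq2 and limma-voom each called 1 as lower. Among 15 replication-dependent histone genes each of the 3 tools called 0, and at an unadjusted edgeR p under 0.05 there were also 0. H2BC8, an H2B gene outside that list, was at 0.719, 0.588 and 0.666 CPM and then 1.98, 1.296 and 1.58 CPM (1.30 ± 0.31, edgeR adjusted p = 0.0060), and its call was lost in the KRT19-rich libraries and without HyT36 replicate 1. Among 27 genes of G1/S and replication 1 rose and 1 fell by edgeR, while DESeq2 called 4 as higher and 2 as lower. At an unadjusted edgeR p under 0.05 there were 12 of these 27. Over all 14892 genes tested 2753 had an unadjusted edgeR p under 0.05. Among 27 genes of G2/M and mitosis 1 rose, the topoisomerase gene TOP2A (0.13 ± 0.04, adjusted p = 0.029), which was lost in both sets of libraries divided by KRT19, with the replicate block and in 5 of the 12 fits without 1 library. MKI67, the Ki-67 proliferation marker, had 123, 165 and 150.3 CPM and then 101, 119 and 114 CPM. It did not pass in the main test (-0.39 ± 0.15, adjusted p = 0.20), but MKI67 was called as lower with limma-voom (adjusted p = 0.036), with the replicate block (0.014) and in the KRT19-poor libraries (-0.65, adjusted p = 2.1e-16). Among 31 histone deacetylases and their partners HDAC9 was called (0.19 ± 0.04, adjusted p = 0.0015), and not in the KRT19-rich libraries. HDAC2, for which the guide of the clone is named, had 259.5, 281 and 275 CPM and then 281, 274 and 273 CPM (0.02 ± 0.04, adjusted p = 0.82). Among noncoding genes, 3 of 17 snoRNA host genes fell, SNHG7 (-0.22), SNHG12 (-0.34) and SNHG15 (-0.25), and each of these calls was lost in 1 of the sets of libraries divided by KRT19.

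Clone 5, the other clone with bulk libraries, carried a guide named for another gene and received the same ligand, and 1219 genes passed there (8.19%). The difference of the responses was tested in the same edgeR fit. Of 14892 genes 45 passed (0.302%), 26 with a clone 4 response above that of clone 5 and 19 below, and 27 of the 45 were among the 830 of clone 4. The clone 5 DMSO libraries were all rich in KRT19 and its HyT36 libraries were all poor, so in clone 5 this state and the ligand cannot be told apart. With KRT19 as a covariate 268 genes passed, and without DMSO replicate 1 of clone 4, the library with most KRT19, 140 did. In all of 18 alternatives other than the test against a fold of 1.2, 10 of the 45 kept the call, among them XBP1, DNAJB1, HERPUD1, TSC22D3, AMOTL2, TNFRSF10D and MAT2A.

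XBP1 stood out in this contrast. Against its rise in clone 4, it had 136, 127 and 129.8 CPM with DMSO and 132, 127 and 134 CPM with HyT36 in clone 5 (log2 fold change -0.00 ± 0.04), and the difference was 0.58 ± 0.05 (edgeR adjusted p = 6.9e-09). HERPUD1 rose in both, by 1.06 in clone 4 and 0.63 in clone 5, with a difference of 0.43 ± 0.07 (adjusted p = 0.0014). DNAJB1 rose by 0.76 and 0.30 (difference 0.46 ± 0.06, adjusted p = 2.0e-05) and TSC22D3 by 1.04 and 0.31 (0.73 ± 0.12, adjusted p = 5.9e-04). HSPA8 gave 0.35 in each clone, with a difference of -0.00 ± 0.05. AMOTL2 fell in clone 4 and had 95.2 to 104 CPM in all 6 clone 5 libraries (difference -0.46 ± 0.06, adjusted p = 1.9e-05). TNFRSF10D and MAT2A fell in both and fell less in clone 4, by 0.69 ± 0.11 and 0.31 ± 0.05 (adjusted p = 7.0e-04 and 0.0016). CHAC1 rose more in clone 4 (difference 0.96 ± 0.18, adjusted p = 0.0060), from 4.61 ± 0.524 CPM (SD, n = 3) with DMSO, against 1.19 CPM in clone 5, and the difference of CHAC1 was not called with limma-voom (adjusted p = 0.16).

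**Figure D5:**
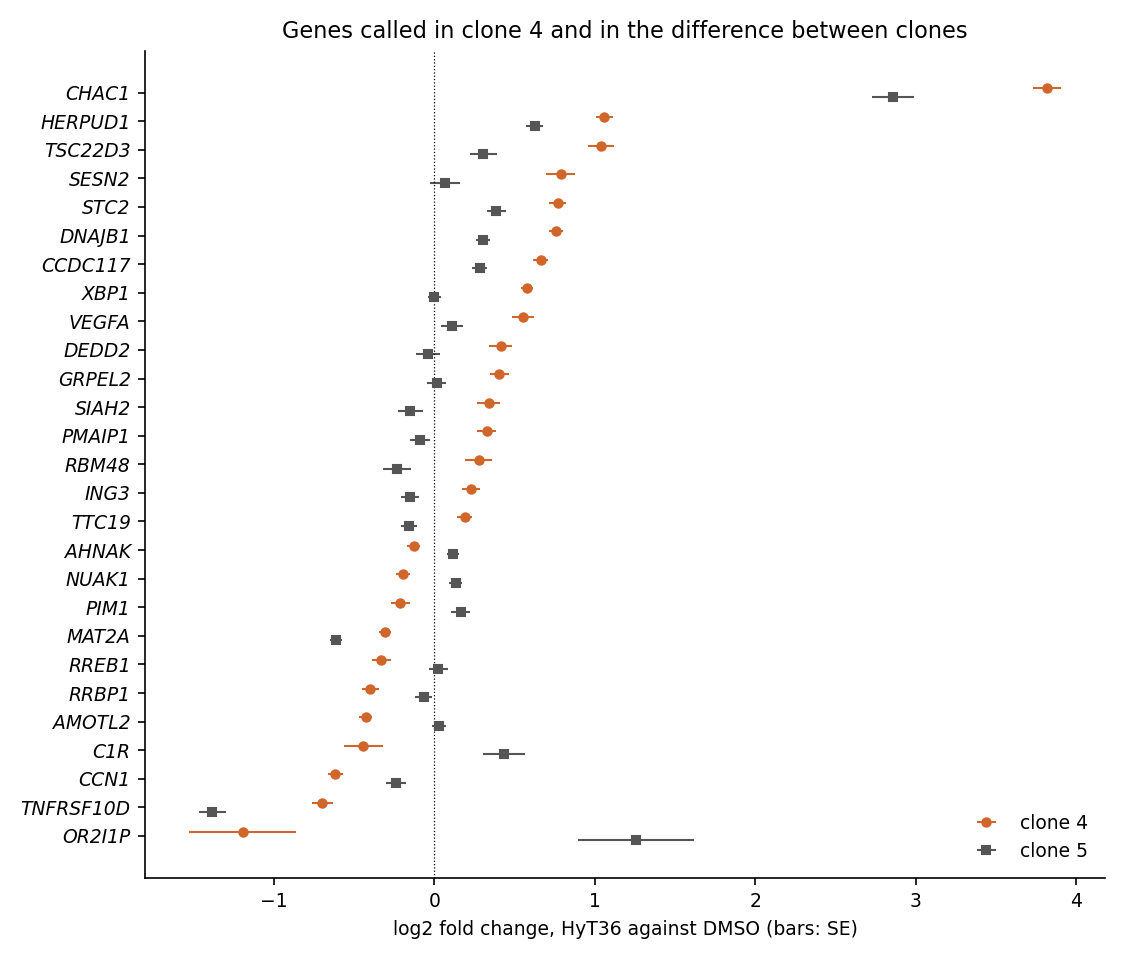
Log2 fold changes with HyT36 against DMSO in clone 4 (orange) and clone 5 (grey) for the 27 genes called both in clone 4 and in the difference between the clones, with bars for the standard error. XBP1 is at 0.58 in clone 4 and -0.00 in clone 5, and OR2I1P and C1R lie on opposite sides of 0.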

How the data were processed

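Bulk RNA of HEK293 clones was sequenced from polyA-selected RNA, per the labels' protocols. The authors deposited 1 table of raw, whole-number counts per gene, guide and summary entry, per the file headers. The submitters' processing notes list GRCh38 and Cell Ranger 7 without tying either to bulk RNA. For bulk RNA the aligner, annotation and strand setting were not given in the sources used here, so reads of overlapping or antisense genes cannot be told apart. Neither the 4 summary entries nor the 22344 guide rows entered library sizes or tests, and gene counts were 82.4 to 83.9% of all entries.

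Counts were tested with edgeR 4.0.16 in R 4.3.3: filterByExpr by group (14892 genes left), TMM scaling, and 1 robust quasi-likelihood fit over the 12 bulk libraries in their 4 groups, so that the clone 5 libraries add to the estimate of spread. Tests were two-sided, with Benjamini-Hochberg adjustment over all genes tested and a threshold of 0.05. CPM values are TMM-scaled. Standard errors are approximate and were obtained from each log2 fold change and its F statistic. The labels do not say whether replicates came from different cultures; p-values then reflect only how far these samples vary, which may be technical. Pairs of replicates differed beyond counting noise (chi-square per degree of freedom 1.90 to 8.15).

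Genes named are the 15 largest rises and 15 largest falls with no overlap of the groups and a mean log2 CPM not under 1, the 10 largest gains and losses in CPM, the 5 largest each way below that level, for each list the members of lowest p (at most 4), the 10 largest differences between clones each way, and a set of stress genes; some genes that this rule names are not reported here. The comparison, the gene lists and this rule were chosen with earlier results of these data known. Libraries with KRT19 of at least 10 CPM are called KRT19-rich and the others KRT19-poor. Alternatives were RLE scaling, DESeq2 1.42.0, limma-voom (limma 3.58.1), no filter, a test against a fold of 1.2, a stricter threshold, a replicate block, KRT19 as a covariate, subsets by KRT19, clone 4 alone and leaving out each library. In simulated counts 5.92% of called genes were false. These counts lacked the KRT19 state that divides the real libraries, so the share need not hold for the real calls. Promoter windows are RefSeq's on GRCh38.p14, matched by symbol, with the first listed window of each gene used, and 11369 tested genes had one. The single-cell and guide libraries of the series were not analysed here.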

Additional observations from a re-analysis of the deposited data

Results flagged for a closer look

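The response of clone 4 differed from that of clone 5 by the edgeR interaction test (Benjamini-Hochberg adjusted p under 0.05) for the following named genes, given as the clone 4 minus the clone 5 log2 fold change. Stress and chaperone genes with the larger change in clone 4 were CHAC1 (0.96), TSC22D3 (0.73), SESN2 (0.72), XBP1 (0.58), DNAJB1 (0.46), VEGFA (0.44), HERPUD1 (0.43), PMAIP1 (0.42), GRPEL2 (0.39) and STC2 (0.38). Of 18 alternatives other than the fold of 1.2, STC2, GRPEL2 and MMP15 were called in 8 each, SESN2 in 10, OR2I1P in 11, VEGFA in 12, CCN1 in 13, PMAIP1 in 15, C1R in 16 and CHAC1 and SGK1 in 17. With the KRT19 covariate the difference of STC2 was 0.22 (adjusted p = 0.34) and that of GRPEL2 0.31 (0.18). TNFRSF10D (0.69) and MAT2A (0.31) fell less in clone 4 than in clone 5. CCN1 (-0.38) and AMOTL2 (-0.46) were lower in the clone 4 response, as were the kinase gene SGK1 (-0.65), the complement protease gene C1R (-0.88), the metalloprotease gene MMP15 (-0.94) and the pseudogene OR2I1P (-2.45).

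A further 12 genes differed where clone 5 had 0 to 38 reads in a library, and a fitted value at such counts depends on the prior count. With values above 0 these were NCAM2 (5.84), TMEM145 (5.43), RAB27B (3.76), TENT5C (3.31), SEMA3D (2.73), NIBAN1 (2.11), NELL1 (1.87) and SH2D4A (1.85), and with values below 0 AGT (-4.15), NSG1 (-2.78), CELF2 (-2.71) and PPP2R2B (-2.69). None of these 12 passed in clone 4 itself. NCAM2, for example, had 112 to 154 reads per library in clone 4, against 9, 5 and 7 with DMSO and 0 with HyT36 in clone 5. Of the 12, only NCAM2 kept the call in every alternative but the fold of 1.2.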

How the results depend on the processing

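The 830 calls of clone 4 (329 rising, 501 falling) became 839 with RLE scaling, 856 with DESeq2, 726 with limma-voom, 944 without a filter, 870 with clone 4 alone and 1055 with the KRT19 covariate. Against a fold of 1.2 they were 52 (25 and 27), at a threshold of 0.01 412 (136 and 276), in KRT19-poor libraries 287 (97 and 190, 227 of the 830 kept) and in KRT19-rich ones 1177 (569 rising, 434 kept). With 1 library left out the count ranged from 409 to 851, with 153 to 357 rising and 256 to 532 falling. Correlations of deviations were -0.44, -0.19 and -0.22 for equal replicate numbers and -0.28 to 0.38 for unequal ones. The KRT19 state differs between replicates and enters these values, so they cannot settle whether the samples were paired. A replicate block gave 715 calls. The 45 differences between clones became 12 with limma-voom, 169 without a filter, 7 against a fold of 1.2, 268 with the KRT19 covariate, 17 at a threshold of 0.01, 43 with the replicate block and 25 to 140 with 1 library left out. The cause of these shifts was not tested. No called gene among the 232 named changed direction in the alternatives that gave it a value (189 genes with DESeq2, 229 with clone 4 alone, 231 in KRT19-poor libraries, 232 in the others), and the calls of 105 were lost against a fold of 1.2, 66 in KRT19-poor and 37 in KRT19-rich libraries. Under a mean log2 CPM of 1, 14 of 3217 genes were called, and the part of depth in this was not tested.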
